A study of Mus musculus with 4 samples.

Results

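The STAT (signal transducer and activator of transcription) genes are the subject here. They were chosen by name, as the 6 feature IDs Stat2, Stat3, Stat4, Stat5a, Stat5b and Stat6 among 37583 features, and all 6 were found in every library and passed the filter on low counts. The measure was the number of total exon reads per gene. The study set cultures that received an inhibitor of CK2, a serine/threonine protein kinase, against cultures without it. All cultures were naive CD4+ T cells sorted from C57BL/6 spleens and kept for 24 h on antibodies to CD3 and CD28. All were also given IL-1β, IL-6 and IL-23, while IL-4 and IFN-γ were neutralised, and the titles name this condition aTh17. The groups were a library of cells given 1.5 µM DMAT, the library titled as its control, a library of cells given 1 µM CX4945, and the library titled as its control. Each group held 1 library, and the labels do not say whether animals were pooled or give their age.

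A STAT protein waits in the cytoplasm until a cytokine receptor brings JAK kinases together. The JAK phosphorylates a tyrosine of the STAT, a pair of STATs then binds through SH2 domains, enters the nucleus and binds DNA. In CD4+ T cells each member has a known partner set: STAT3 serves IL-6, IL-21 and IL-23 and is needed for Th17 differentiation, STAT4 serves IL-12 and IL-23, STAT5A and STAT5B serve IL-2 and IL-7 and restrain Th17 cells, STAT6 serves IL-4, and STAT2 serves type I interferon. In the cultures described, IL-6 and IL-23 were added and IL-4 was blocked.

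The libraries held between 2056635 and 2772525 exon reads. The 6 T cell marker genes (Cd3e, Cd3d, Cd3g, Cd4, Cd28 and Lck) summed to between 1681 and 1794 CPM (exon reads scaled to a common library total, after TMM). Markers of CD8 T cells (Cd8a and Cd8b1) summed to at most 4.93 CPM. Those of B cells, myeloid cells and NK cells summed to at most 1.45, 1.18 and 0.493 CPM, with Cd79b, Ms4a1, Lyz2, Itgam, Ncr1, Klrb1c and Klrd1 at 0 in every library, and the 4 erythroid genes were at 0.

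Where the STAT genes lie bears on how their reads can be told apart. In mm9, the build of the files, Stat5b (100642045 to 100712038), Stat5a (100720665 to 100746483) and Stat3 (100746412 to 100800854) follow each other on chromosome 11, and the Stat5a and Stat3 spans overlap by 72 bases. Stat6 (127080042 to 127098013) and Stat2 (127707629 to 127729905) lie on chromosome 10, where Stat6 overlaps Nab2 by 40 bases, and Stat4 lies on chromosome 1 (52043992 to 52164032) with the feature Gm3940 inside its span. Whether the counting used strand is not stated in the labels, so reads in these overlaps cannot be assigned to either gene with certainty.

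Stat5a and Stat5b are near copies. Their coding sequences (GENCODE M21) were 90.7% identical over 2294 aligned bases, while every other pair of the 6 genes was between 54.0% and 61.3% identical. The longest identical run of Stat5a and Stat5b spanned 324 bases, from base 571 to base 894 of both coding sequences. Its first 300 bases (571 to 870) are shown because a read that falls wholly inside the run matches both genes.
Stat5a and Stat5b: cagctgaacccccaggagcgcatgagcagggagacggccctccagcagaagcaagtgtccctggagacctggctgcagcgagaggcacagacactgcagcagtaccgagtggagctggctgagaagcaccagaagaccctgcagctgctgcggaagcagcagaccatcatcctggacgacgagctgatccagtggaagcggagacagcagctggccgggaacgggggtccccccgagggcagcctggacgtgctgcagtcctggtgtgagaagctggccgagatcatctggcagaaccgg
Across the 4 libraries 86.6% of the Stat5a exon reads and 82.8% of the Stat5b exon reads were unique. Stat2, Stat4 and Stat6 had unique exon reads alone, and Stat3 had 1 read of 2806 that was not unique.

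Promoter windows from RefSeq (GRCm38.p6, 250 bases before to 50 after an annotated start) were found for all 6 genes, 9 windows in all. The STAT consensus TTCNNNGAA, searched on both strands, was in 0 of the 9 windows and in 8.3% of all 32851 windows. A pair of GAAA parted by any 2 bases, the core of the interferon-stimulated response element that STAT2 complexes bind, was in 2 of the 9 windows, searched on both strands, and in 3.44% of all windows. Those 2 windows are shown because they hold the match, which is in capitals (in the Stat2 window it is on the other strand). A link between the match and expression was not tested. The Stat4 window lies at chr1:52007990-52008289 and the Stat2 window at chr10:128270248-128270547, both on the plus strand.
Stat4, the second annotated start: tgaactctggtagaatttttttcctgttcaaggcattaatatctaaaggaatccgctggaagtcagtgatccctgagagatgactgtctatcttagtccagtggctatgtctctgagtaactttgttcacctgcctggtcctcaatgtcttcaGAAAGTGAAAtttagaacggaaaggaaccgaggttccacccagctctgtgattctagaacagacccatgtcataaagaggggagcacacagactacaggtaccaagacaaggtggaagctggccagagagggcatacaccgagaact
Stat2: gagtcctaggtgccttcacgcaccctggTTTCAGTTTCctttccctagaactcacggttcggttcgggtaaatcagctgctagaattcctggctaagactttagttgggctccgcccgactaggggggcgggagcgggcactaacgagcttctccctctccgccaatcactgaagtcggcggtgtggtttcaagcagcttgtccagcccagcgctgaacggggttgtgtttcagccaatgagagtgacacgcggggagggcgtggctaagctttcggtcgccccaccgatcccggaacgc

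Per exon length, Stat5a and Stat6 stood highest and Stat2 lowest, an order that rests on the deposited exon lengths (Stat3 9527 bases, Stat6 4402). Reads that span an exon junction, not scaled by length, were more for Stat3 than for Stat6 and Stat5b in every library. With DMAT they numbered 178 against 142 and 104, so the place of Stat3 below those genes depends on the scale. In CPM per kilobase of exon, Stat5a lay between 43.8 and 77.2 over the 4 libraries, Stat6 between 46.9 and 48.5, Stat5b between 35.3 and 40.01, Stat3 between 27.3 and 33.1, Stat4 between 8.90 and 18.7 and Stat2 between 4.11 and 4.39. The ranges of Stat5a and Stat6 overlapped, and Stat6 led in the DMAT library alone, at 46.9 against 43.8 CPM per kilobase for Stat5a, where the 95% counting intervals of the levels overlapped. The ranges of the other neighbours in this order did not overlap. In the control for DMAT, however, the counting intervals of Stat5b (32.4 to 38.4) and Stat3 (31.0 to 35.4) did. Among the 9629 genes that entered the fit across all libraries, Stat5a stood above 83.7% of genes in level per length with DMAT and above 88.8% in its control, and Stat2 above 21.9% and 20.4%.

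**Figure D1:**
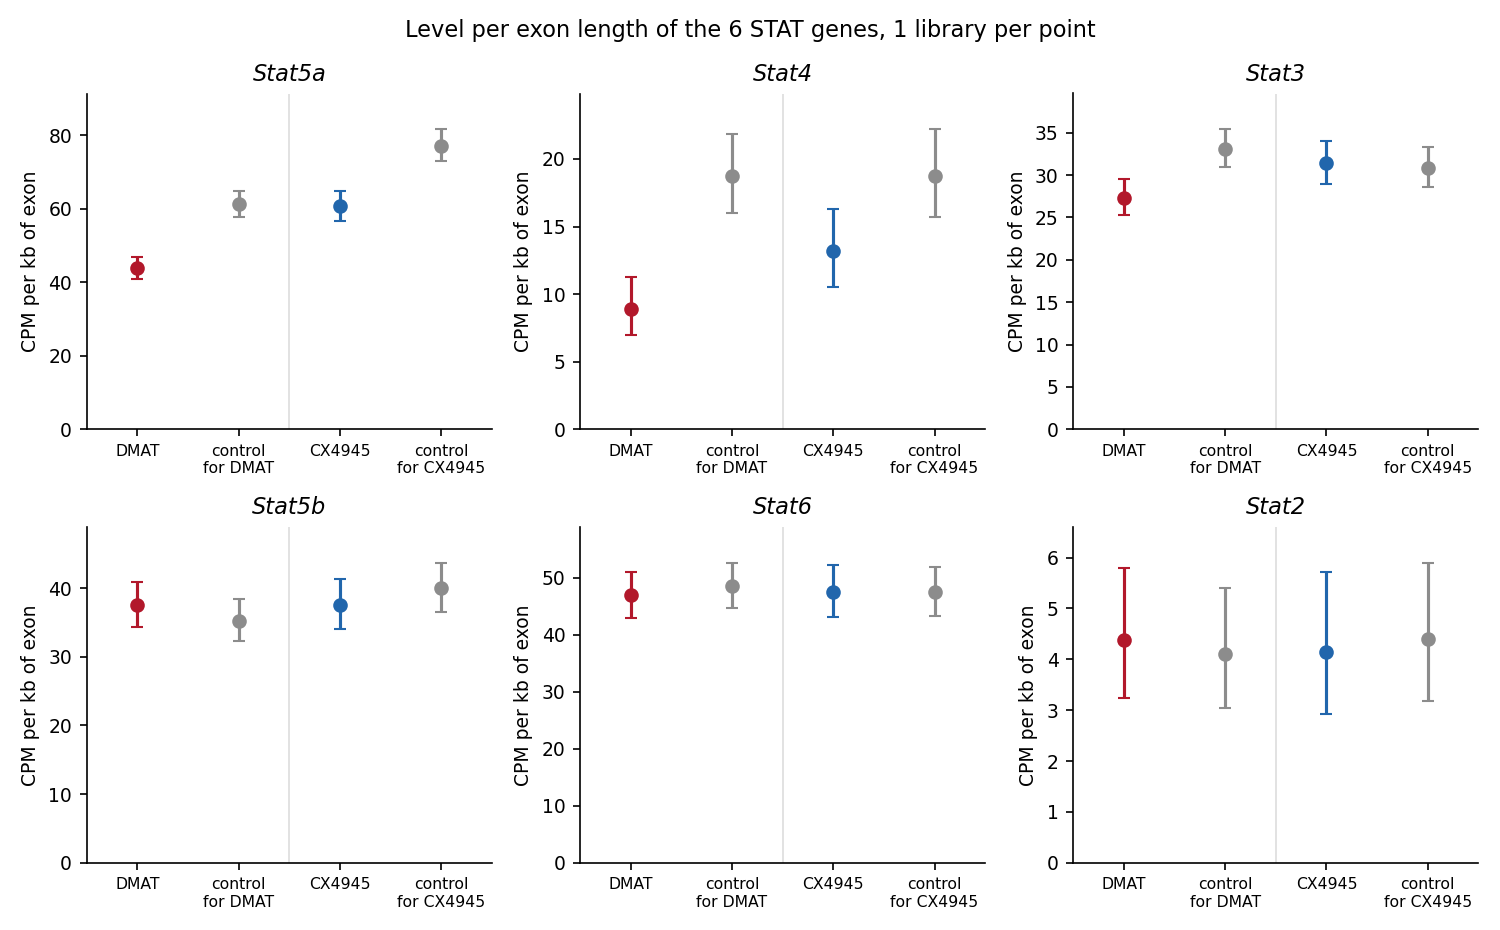
Level of each STAT gene in CPM per kilobase of exon (vertical axes, each from 0) in the DMAT library, its control, the CX4945 library and its control; points are single libraries and bars are 95% Poisson counting intervals. Stat5a and Stat4 lie below their own control with either inhibitor, and Stat5a in the CX4945 library (60.7) is level with the control for DMAT (61.3).

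Stat5a, a transducer of IL-2 and IL-7 signals, was the STAT gene that passed the test. It had 791 exon reads with DMAT against 1208 in its control, which is 312 CPM against 437 CPM, a ratio of 0.714 (95% counting interval 0.652 to 0.782). With CX4945 it had 877 reads against 1252 in its control, 433 CPM against 551 CPM, a ratio of 0.786 (0.720 to 0.858). Both inhibitor libraries were below both controls, although CX4945 (433 CPM) was close to the control for DMAT (437 CPM). In bulk RNA, fewer cells that express a gene and less of its RNA per cell cannot be told apart.

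Over both experiments Stat5a fell by 0.42 on the log2 scale (SE 0.09, edgeR quasi-likelihood test, adjusted p = 0.0265 over 9629 genes). This fit had the experiment as a block and took DMAT and CX4945 as repeats of the same treatment. In the same fit 0.561% of genes passed (54 of 9629), 0.384% of all genes as lower with inhibitor, and 1 of the 6 STAT genes passed. The difference between the experiments was of like size: Stat5a stood 1.26 times as high in the control for CX4945 as in that for DMAT (1.16 to 1.36), so against the other experiment's control the log2 ratio was -0.82 with DMAT and -0.01 with CX4945. The call depended on the pairing and on the tool, with an adjusted p of 0.999 without the block and 0.99994 with DESeq2. In fits that left out 1 library, which drop the block, it passed without the CX4945 library (log2 -0.67, adjusted p = 0.0489) and did not without the DMAT library (-0.19), the control for DMAT (-0.57) or the control for CX4945 (-0.23).

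Junction reads and reads outside exons of Stat5a were also below their controls. All kinds of read come from the same libraries, and unique exon reads are a part of the total. The kinds are therefore not independent measures, for Stat5a or for the other genes. Reads that span an exon junction numbered 208 with DMAT against 297 in its control (ratio 0.774, 0.645 to 0.927) and 220 with CX4945 against 303 in its control (0.832, 0.696 to 0.993). Unique reads in the gene but outside its exons, which include introns, numbered 54 with DMAT against 120 in its control (0.491, 0.349 to 0.682) and 56 with CX4945 against 94 in its control (0.669, 0.471 to 0.941). None of these 4 intervals held a ratio of 1, while the exon reads that were not unique gave 0.633 with DMAT (105 against 181 in its control, 0.493 to 0.809) and 0.908 with CX4945 (119 against 147 in its control, 0.707 to 1.16), which holds 1. Between the control libraries (control for CX4945 over that for DMAT) junction reads differed, with a ratio of 1.22 (1.03 to 1.43), and reads outside exons gave 0.952 (0.719 to 1.26).

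**Figure D2:**
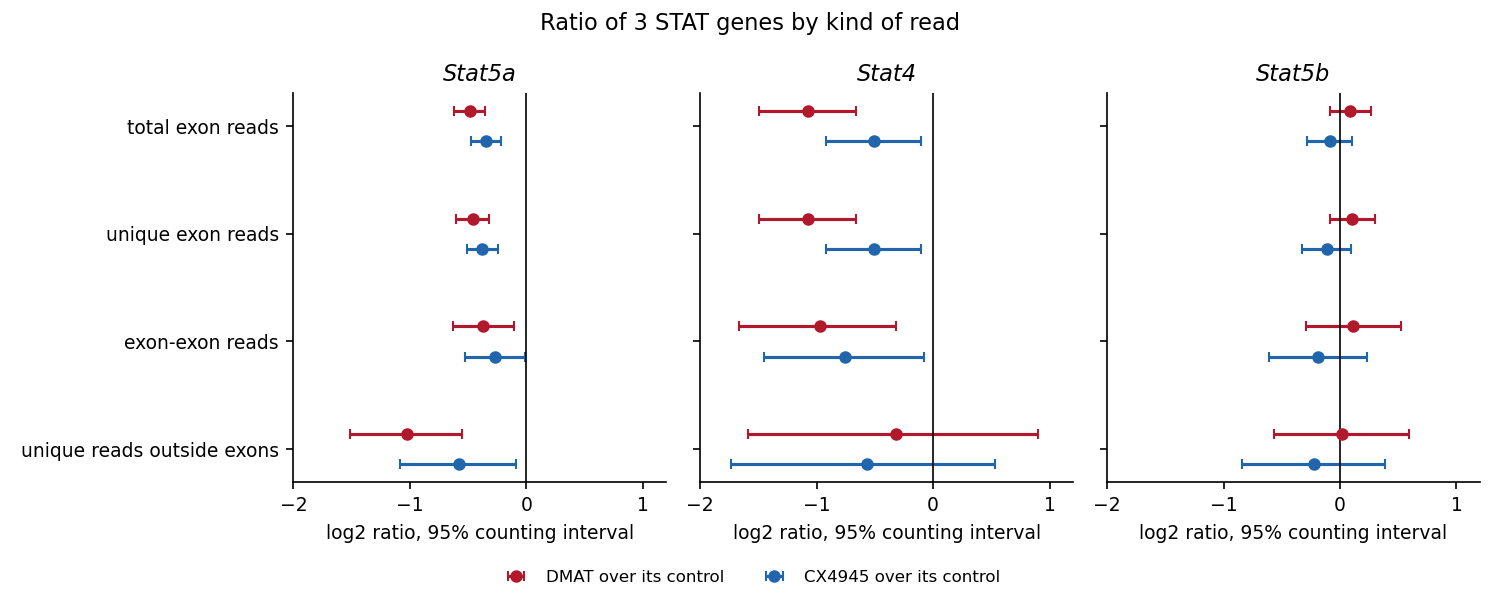
Log2 ratio of Stat5a, Stat4 and Stat5b (horizontal axis) for 4 kinds of read, DMAT over its control in red and CX4945 over its control in blue, with 95% counting intervals. For the 4 kinds plotted (total exon, unique exon, junction and unique reads outside exons) each Stat5a interval lies below 0, while each Stat5b interval holds 0. The kinds come from the same libraries and are not independent measures.

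Stat5b, which encodes the near-identical partner of STAT5A, had intervals that hold a ratio of 1 with either inhibitor. It had 208 CPM with DMAT against 195 CPM in its control (527 and 540 reads, ratio 1.06, 0.942 to 1.202). With CX4945 it had 208 CPM against 222 CPM in its control (422 and 504 reads, ratio 0.940, 0.824 to 1.07). The inhibitor libraries lay between the controls, which differed by a ratio of 1.13 (control for CX4945 over that for DMAT, 1.00 to 1.28, above 1 before rounding), and the joint log2 fold change was 0.00 (SE 0.10, edgeR adjusted p = 0.998).

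In exon reads the ratio of Stat5a to Stat5b was below that of its own control with either inhibitor. Per exon length Stat5a was 1.17 times Stat5b with DMAT (95% counting interval 1.04 to 1.30) against 1.74 times in its control (1.57 to 1.93), intervals that did not overlap. With CX4945 it was 1.61 times Stat5b (1.44 to 1.82) against 1.93 times in its control (1.74 to 2.14), and these intervals overlapped. In unique reads alone, which are given per gene and not per length, the Stat5a to Stat5b ratio was 1.54 with DMAT against 2.28 in its control, and 2.22 with CX4945 against 2.67 in its control. In junction reads it was 2.0 with DMAT (1.57 to 2.56) against 2.80 in its control (2.24 to 3.53), and 2.59 with CX4945 (2.01 to 3.36) against 2.73 in its control (2.19 to 3.42), and the intervals overlapped in both pairs. Stat5a took 30.2% of the exon reads of the 6 STAT genes with DMAT (exact binomial 95% interval 28.4% to 32.0%) against 35.3% in its control (33.7% to 36.9%), and 35.8% with CX4945 (33.9% to 37.7%) against 40.7% in its control (38.9% to 42.4%). The share with CX4945 was not below that in the control for DMAT.

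Stat4, the transducer of IL-12 and of IL-23, had the lowest ratio of the family. It had 71 exon reads with DMAT against 163 in its control, 28.0 CPM against 59.0 CPM, which is 2.11-fold lower (1.58 to 2.82). With CX4945 it had 84 reads against 134 in its control, 41.5 CPM against 58.9 CPM, 1.42-fold lower (1.07 to 1.89). Both inhibitor libraries lay below both controls, and the controls were at the same level, with a ratio of 0.999 (control for CX4945 over that for DMAT, 0.789 to 1.26). The DMAT ratio was the single STAT value past 2-fold; 2.36% of 9649 genes were past 2-fold with DMAT (1.27% lower), 1.81% of 9358 with CX4945, where 0 of the 6 STAT genes were, and between the controls 2.26% of 9564 genes were (1.28% lower), but 0 of the 6 STAT genes.

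In the joint fit Stat4 had a log2 fold change of -0.79 (SE 0.18), the 126th lowest of 9629 genes, and an adjusted p of 0.0521 (edgeR quasi-likelihood), just outside the threshold of 0.05. It passed with unique exon reads (adjusted p = 0.00148), with DESeq2 size factors in edgeR (0.0204), with total-count scaling (0.00571) and, with no block, without the CX4945 library (log2 -1.08, 0.0259). It did not pass without the low-count filter (0.0656), without the block (0.999) or with DESeq2 (0.99994). Nor did it pass without the DMAT library (log2 -0.51, 0.447), the control for DMAT (-0.77, 0.99998) or the control for CX4945 (-0.78, 0.99954). Junction reads gave ratios of 0.508 with DMAT (29 reads against 63 in its control, 0.316 to 0.801) and 0.593 with CX4945 (29 against 56 in its control, 0.365 to 0.945). Unique reads outside exons were few, 11 with DMAT against 15 in its control and 12 with CX4945 against 20 in its control, and a difference was not detectable at this depth.

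**Figure D3:**
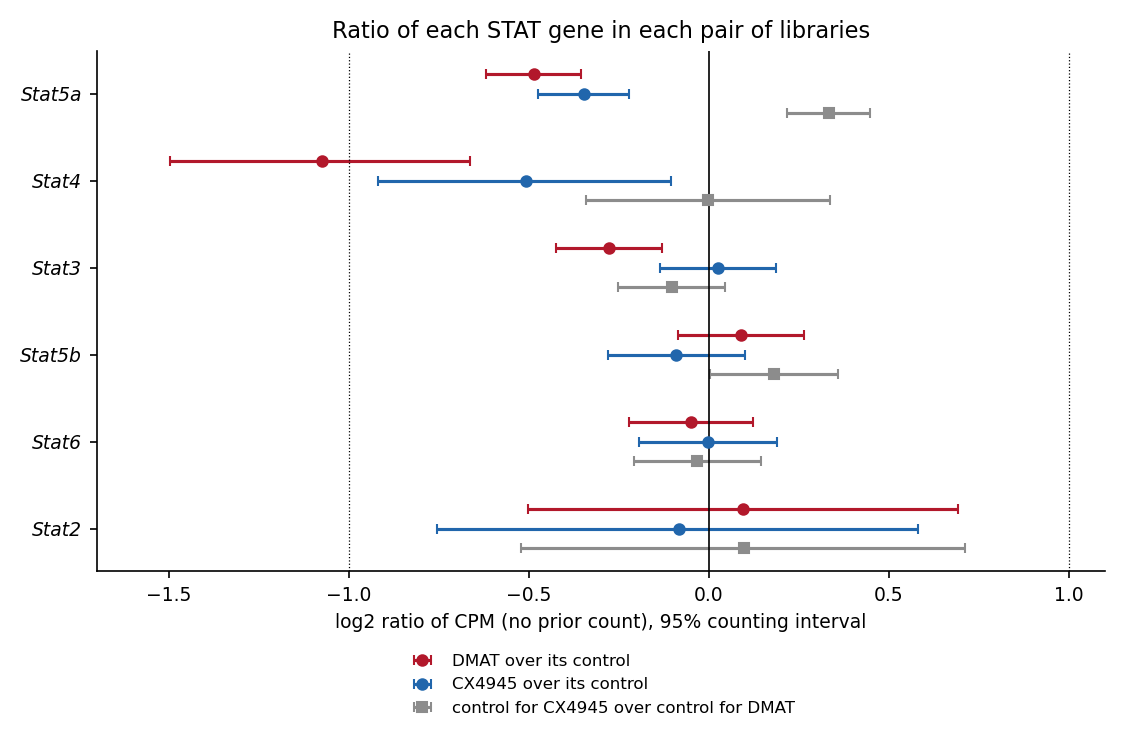
Log2 ratio of CPM without a prior count (horizontal axis) of each STAT gene with DMAT over its control (red), CX4945 over its control (blue) and the control for CX4945 over the control for DMAT (grey squares), with 95% counting intervals; dotted lines mark 2-fold. Both inhibitor intervals of Stat4 and Stat5a lie below 0, and the grey interval of Stat5a lies above 0 while that of Stat4 is centred on it.

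The 5 genes most like Stat4 over the 4 libraries were Casp6, an effector caspase, Ptprj, a receptor tyrosine phosphatase, Frmd6, the adhesion receptor Cd44, and Wsb2. Likeness was the Euclidean distance of centred log2 CPM among 8336 genes with at least 100 reads, and the distances lay between 0.0757 (Casp6) and 0.212 (Wsb2). Casp6 had 39 reads with DMAT against 96 in its control and 46 with CX4945 against 77 in its control. Cd44, a marker of activated and memory T cells, had 94 against 177 and 99 against 162. None of the 5 passed the joint test (edgeR adjusted p between 0.0694 for Cd44 and 0.295 for Wsb2).

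Stat3, the transducer of IL-6 and IL-23 on which Th17 differentiation depends, was below its control with DMAT and level with it with CX4945. It had 660 reads with DMAT against 872 in its control, 260.4 CPM against 315 CPM, a ratio of 0.825 (0.745 to 0.914). With CX4945 it had 606 reads against 668 in its control, 299 CPM against 294 CPM, a ratio of 1.02 (0.911 to 1.14). The inhibitor and control libraries overlapped in level, and Stat3 did not pass the joint test (log2 -0.13, SE 0.10, edgeR adjusted p = 0.879). Junction reads of Stat3 gave 0.927 with DMAT (0.756 to 1.14), an interval that holds a ratio of 1. Whether DMAT and CX4945 differ in Stat3 was not tested, since dose and experiment differ as well.

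Stat6, the transducer of IL-4, had the narrowest relative range of level in the family. It had 206 CPM with DMAT against 213 CPM in its control (523 and 590 reads, ratio 0.967, 0.858 to 1.09). With CX4945 it had 209 CPM, as in its control (423 and 475 reads, ratio 0.999, 0.875 to 1.14). Its joint log2 fold change was -0.03 (SE 0.10, edgeR adjusted p = 0.982). In total exon reads the largest decrease that either interval holds is 1.17-fold, which covers counting error only. The intervals of Stat6 junction reads reach a 1.38-fold decrease with DMAT and a 1.47-fold decrease with CX4945. Stat2, the interferon factor, was the weakest, with 49 reads with DMAT against 50 in its control and 37 with CX4945 against 44 in its control. Its ratios were 1.07 (0.706 to 1.62) and 0.944 (0.593 to 1.50), with a joint log2 fold change of 0.01 (SE 0.27, edgeR adjusted p = 0.997), and both intervals hold a ratio of 1, so that a difference was not detectable at this depth.

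**Figure D4:**
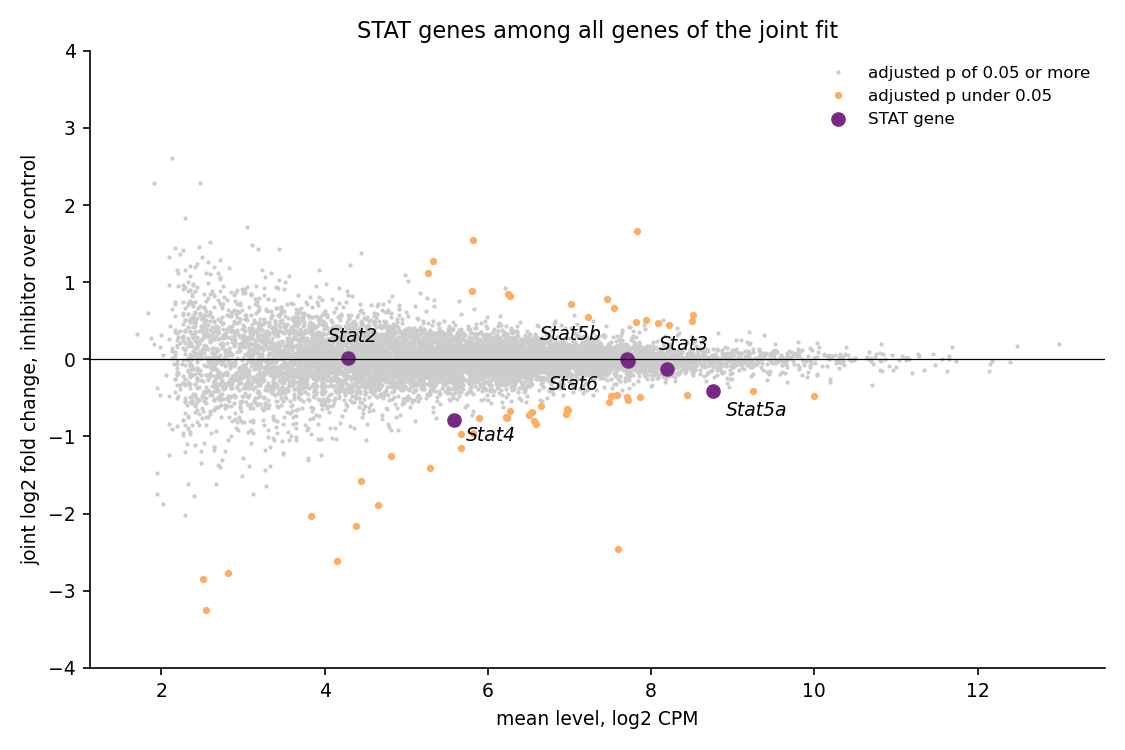
Joint log2 fold change of inhibitor over control (vertical axis) against mean level in log2 CPM (horizontal axis) for the 9629 genes of the joint fit, with genes past the test in orange and the 6 STAT genes in purple. Stat5a lies among the genes past the test at -0.42 and Stat4 just short of them at -0.79, while Stat3, Stat5b, Stat6 and Stat2 lie between -0.13 and 0.01.

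Summed over the family, the 6 genes held 1034 CPM with DMAT against 1238 CPM in its control (ratio 0.835, 0.793 to 0.879) and 1209 CPM with CX4945 against 1353 CPM in its control (0.893, 0.847 to 0.942). The controls differed by a ratio of 1.09 (control for CX4945 over that for DMAT, 1.04 to 1.15). Stat5a weighs heavily in these sums, at 312 CPM with DMAT against 437 CPM in its control. With CX4945 it had 433 CPM against 551 CPM in its control. The CX4945 intervals of Stat2, Stat3, Stat5b and Stat6 each held a ratio of 1, so the sums do not show a fall of the whole family. The median joint log2 fold change of the 6 genes was -0.08, beside 0.00 over all genes tested. With DMAT 4 of the 6 were below their control, and 49.2% of all genes were. With CX4945 5 of the 6 were below their control, and 49.4% of all genes were; the fifth was Stat6, at a log2 ratio of -0.00092 that is 0.0020 with DESeq2 size factors.

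Upstream of the STATs, none of the 4 JAK kinase genes passed the joint test (edgeR adjusted p between 0.228 and 0.983). Jak2, the kinase of the IL-12 and IL-23 receptors among others, had 1755 reads with DMAT against 2652 in its control and 1545 with CX4945 against 1872 in its control, log2 ratios of -0.47 and -0.11. It was the single JAK gene with an unadjusted p under 0.05 (joint log2 -0.29, adjusted p = 0.228), and DESeq2 called 0 of the 4. Jak1 and Jak3, the partners of the common gamma chain receptors, stood at -0.02 and -0.05 (log2 ratio) for DMAT, and at 0.10 and 0.09 for CX4945. Tyk2 had -0.23 and 0.82 on 41 to 66 reads a library, of which 41.9% were unique.

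Of the 21 receptor chains listed, 17 were tested, 1 fell and 0 rose, beside 0.384% of all genes that passed as lower, and DESeq2 called 0 of the 17. That gene was Il23r, the receptor chain whose ligand IL-23 was in the medium, at 6.31 CPM with DMAT against 38.7 CPM in its control and at 14.8 CPM with CX4945 against 36.1 CPM in its control (joint log2 -1.89, SE 0.30, edgeR adjusted p = 0.00326). The most abundant chains were Il2ra, the alpha chain of the IL-2 receptor, with 973 against 1158 CPM in the DMAT pair and 962 against 1079 CPM in the CX4945 pair (adjusted p = 0.463), and Il2rg, the common gamma chain, of whose reads 6.43% were unique (0.972). The list's median joint log2 fold change was 0.02. An unadjusted edgeR p under 0.05 was found for 5 of the 17 (Il6st, Il23r, Il12rb2, Il2ra and Il4ra), beside 696 of all 9629 genes.

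Of the 11 cytokine genes that signal through STATs, 5 had enough reads to be tested, and 2 of them fell, beside 0.384% of all genes that passed as lower. Both calls were lost with DESeq2, which called 0 of the 5. An unadjusted edgeR p under 0.05 was found for 3 of the 5 (Il2, Il22 and Lif), beside 696 of all 9629 genes. Lif, an IL-6 family cytokine that signals through STAT3, had 481 reads with DMAT against 773 in its control, 189.8 CPM against 279.7 CPM. With CX4945 it had 309 reads against 462 in its control, 152 CPM against 203 CPM, and its joint log2 fold change was -0.49 (SE 0.10, edgeR adjusted p = 0.0195). Lif also differed between the controls, by a log2 ratio of -0.46 (control for CX4945 over that for DMAT). Il22 fell as well (0 reads with DMAT against 62 in its control, 22 with CX4945 against 78 in its control, adjusted p = 0.0132, 45.7% of reads unique). Il2, the main activator of STAT5 in T cells, had 429 CPM with DMAT against 624 CPM in its control and 497 CPM with CX4945 against 479 CPM in its control (adjusted p = 0.590), and Il21, which acts through STAT3, had log2 ratios of -0.10 and 0.00 (0.961).

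None of the 17 inhibitors of the pathway passed the joint test with edgeR, and DESeq2 called 0. An unadjusted edgeR p under 0.05 was found for 0 of them, beside 696 of all 9629 genes. The phosphatase genes Ptpn1 and Ptpn6 stood at -0.02 and 0.10 (log2 ratio) for DMAT, and at -0.14 and 0.04 for CX4945. Socs2, a feedback inhibitor induced by STAT5, had the largest mean absolute log2 ratio of the list, with 0.92 for DMAT (28 reads against 15 in its control) and 0.46 for CX4945 (19 against 15 in its control; adjusted p = 0.730). With CX4945 the ratios of Sh2b3 (0.80), Socs3 (0.58) and Pias3 (0.48) were above that of Socs2. The list's median joint log2 fold change was 0.10.

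**Figure D5:**
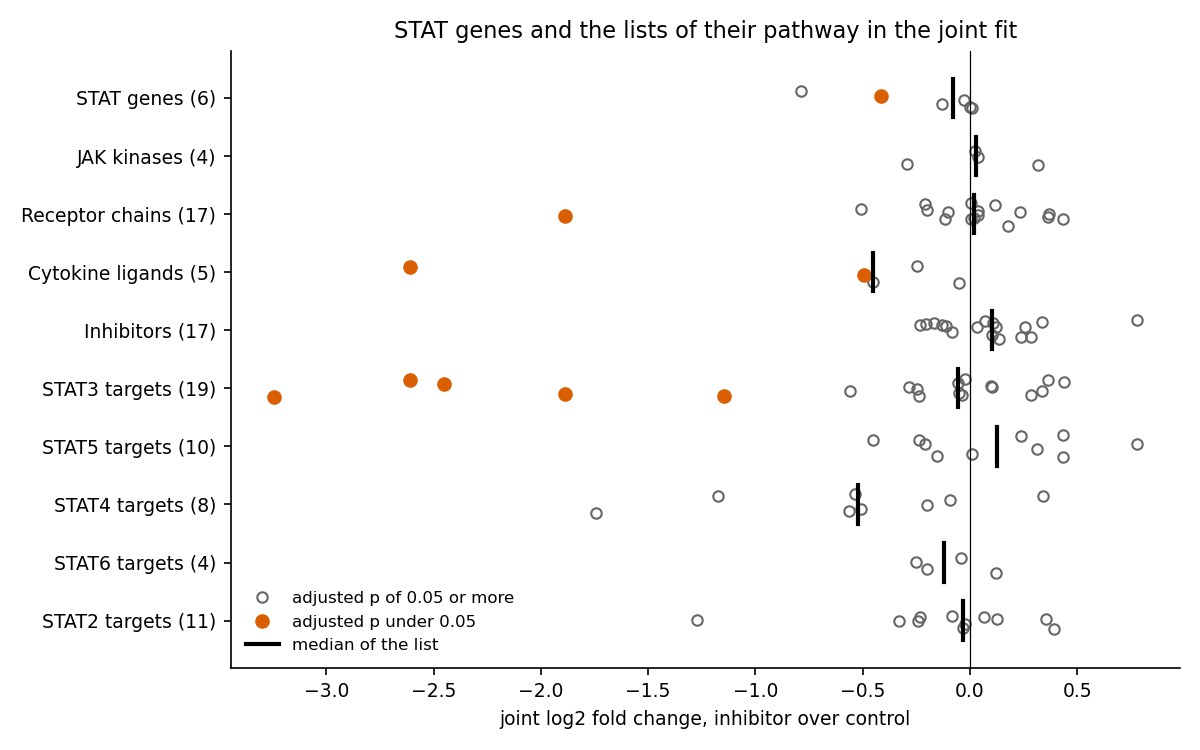
Joint log2 fold change of inhibitor over control (horizontal axis) for the STAT genes and for each list of their pathway, with the number of genes tested in brackets; filled points passed the test (adjusted p under 0.05), open ones did not, and the bar is the list's median. The filled points outside the STAT3 target list are Stat5a, Il23r, Il22 and Lif, of which Il23r and Il22 are also among the STAT3 targets. The largest shift of a median is that of the 8 STAT4 targets, at -0.52. In the separate pairs the median log2 ratio of that list was -0.53 with DMAT and -0.20 with CX4945.

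The known targets of each STAT were then counted, without a test of the lists, beside the 0.561% of all genes that passed. These lists and those above were chosen with earlier results of these data known, so their counts beside all genes are descriptive only. Of 19 STAT3 targets 5 fell and 0 rose, namely the cytokine genes Il17f, Il17a and Il22 and the receptor genes Il23r and Il1r1, while the list's median was -0.06. DESeq2 called 1 of the 19, Il17f, and so not the other 4. Il17f had 131 reads with DMAT against 1048 in its control and 134 with CX4945 against 600 in its control (joint log2 -2.45, edgeR adjusted p = 1.63e-09). Irf4, the most abundant listed target, had log2 ratios of 0.19 and 0.01 (adjusted p = 0.887), and Hif1a had 0.17 and -0.31 (0.962, 25.0% of reads unique). Il17a (adjusted p = 0.0186) had 3 reads with DMAT against 22 in its control and 1 with CX4945 against 22 in its control. Il1r1 (0.00203) had 86 against 203 and 56 against 143. In each pair 5 of the 19 were at least 2-fold lower, beside 1.27% of all genes with DMAT and 0.919% with CX4945, and 0 were 2-fold higher.

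Over all 9629 genes, 696 had an unadjusted p under 0.05. Of the 10 STAT5 targets tested, 0 passed with edgeR, 4 had an unadjusted p under 0.05 (Il2ra, Bcl2, Pim1 and Ccnd2), DESeq2 called 0, and the median joint log2 fold change was 0.12. Ccnd2, which encodes cyclin D2, stood at 0.21 (log2 ratio) for DMAT and 0.41 for CX4945 (adjusted p = 0.132). Of the 8 STAT4 targets tested, 0 passed with edgeR, 4 had an unadjusted p under 0.05 (Il18r1, Il18rap, Il12rb2 and Ets1), DESeq2 called 0, and 7 had a negative joint log2 fold change, as had 48.9% of all genes, with a median of -0.52. In the separate pairs the median log2 ratio of the STAT4 targets was -0.53 with DMAT and -0.20 with CX4945. Between the controls (control for CX4945 over that for DMAT) it was 0.27. At least 2-fold lower were 2 of 7 with DMAT, beside 1.27% of all genes, and 1 of 8 with CX4945, beside 0.919%. Il18rap, a chain of the IL-18 receptor, had 6 reads with DMAT against 34 in its control and 10 with CX4945 against 26 in its control (joint log2 -1.74, adjusted p = 0.108). Furin, a protease gene, had log2 ratios of -0.33 and -0.07 (0.689), and Ets1 had 0.51 and 0.16 (0.173).

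Of the 4 STAT6 targets tested, 0 passed with edgeR, 1 had an unadjusted p under 0.05 (Il4ra), DESeq2 called 0, and the median was -0.12. Il4ra, the IL-4 receptor chain, had log2 ratios of -0.09 and -0.30 (adjusted p = 0.686), the survival gene Mcl1 -0.01 and -0.08 (0.972), and the repressor gene Gfi1 -0.01 and -0.58 (0.727). Of the 11 interferon-stimulated genes tested for STAT2, 0 passed with edgeR, 2 had an unadjusted p under 0.05 (Ifih1 and Samhd1), DESeq2 called 0, and the median was -0.03. Samhd1, a dNTP hydrolase, had log2 ratios of 0.41 and 0.37 (adjusted p = 0.0688), Ifih1, an RNA sensor, -1.92 and -0.51 (0.190), and Bst2 -0.38 and -0.06 (0.858).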

How the data were processed

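Per the submitters' processing notes, CASAVA 1.8.2 and the build mm9 were used. The aligner, annotation, strand setting and counting rule are not given in the sources used here. The values are whole-number counts of reads per feature, without normalization, in 37583 features per library, per the file headers. The 9551 features without an exon length held 0 exon reads and so did not pass the filter on low counts. The deposited RPKM column was not used, since its decimals are commas. Counts were scaled by TMM in edgeR 4.0.16 (R 4.3.3), and CPM per kilobase used the deposited exon length. Log2 ratios per pair used a prior count of 2, and pairs were read for genes with 20 reads or more over both libraries. With 1 library per group these ratios carry no test; ratio intervals are exact conditional (Clopper-Pearson) 95% intervals and cover counting error only, as do the Poisson intervals of the levels.

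Both pairs were fitted together by edgeR's quasi-likelihood test after filterByExpr, with the experiment as a block and Benjamini-Hochberg adjustment over 9629 genes. The titles give the pairing; across genes, the controls' difference correlated with that of the inhibitor libraries (Pearson's r = 0.339). The fit has 1 residual degree of freedom per gene and 19.7 prior degrees of freedom, and the SE is the log2 fold change over the root of F. Nothing in the labels gives separate cultures or animals as replicates. The fit takes DMAT and CX4945, at different doses, as repeats of the same treatment. Its residual is the difference between their effects, moderated over genes, so p-values do not measure the spread between cultures or animals. No libraries were duplicates (chi-square per degree of freedom at least 2.56). It was 3.05 between the control libraries, 3.24 for DMAT and its control, and 2.56 for CX4945 and its control. Libraries without inhibitor thus differed by more than counting error, and the counting intervals are too narrow for differences between cultures. The intervals were run on simulated counts with counting error only, and the fit on simulated counts without a difference between experiments. Neither simulation held a difference between experiments, so the runs do not show how the fit or the intervals perform on these data.

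The members and lists were chosen with earlier results of these data known. The rule for named genes was the 4 JAK kinases, every list gene past the joint test, and per list the 2 genes with most reads and the one with the largest mean absolute log2 ratio; cell type markers were listed likewise. Alternatives were other scalings (DESeq2 1.42.0 size factors, total counts), no filter, unique reads, junction reads, another prior count, other controls, no block, DESeq2, and leaving out each library.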

Additional observations from a re-analysis of the deposited data

How the results depend on the processing

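Of 84 alternative values of a pair's log2 ratio, 77 stayed within the counting interval of the reported value and 7 did not. Those were Stat5a against the other inhibitor's control (-0.82 with DMAT, -0.014 with CX4945) and against the mean of both controls (-0.66 and -0.19), Stat5b with DMAT against the other control (-0.092), Stat3 with DMAT in junction reads (-0.11) and Stat6 with CX4945 in junction reads (-0.19); the cause was not tested. Of the joint fit's calls, 54 genes and 1 STAT gene became 84 and 2 with DESeq2 size factors and 112 and 2 with total-count scaling. They became 108 and 2 with unique exon reads, 1 and 0 with no experiment block, and 3 and 0 with DESeq2. Without the filter 52 genes passed. Leaving out 1 library in turn, without the block, gave 1 to 73 genes and 0 to 2 STAT genes; the lone library of an arm is then assumed to vary like the others. Stat4 passed with DESeq2 size factors (-0.79, adjusted p = 0.0204), total-count scaling (-0.79) and unique exon reads (-0.79). Stat5a did not pass without the experiment block (-0.41) or with DESeq2 (-0.41). Over the libraries left out, Stat4 ran from -1.08 to -0.51, Stat5a from -0.67 to -0.19, Stat3 from -0.23 (without CX4945) to -0.03 (without DMAT), Stat5b from -0.093 to 0.088 and Stat2 from -0.042 to 0.054, so that Stat5b and Stat2 took both signs. Stat5b, near 0, changed sign without the filter (-0.0040) and without the experiment block (-0.0017). Depth limits Stat2 most, with 37 to 50 reads a library.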
